A study of Mus musculus with 9 samples.

Results

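Heat shock and unfolded protein response genes code for the chaperones that fold proteins in the cytosol, the mitochondria and the endoplasmic reticulum, and for the transcription factors and enzymes of the stress pathways tied to them. A set of 37 such genes was taken by gene symbol from a table of 54532 mouse genes. The choice was made with earlier results of these data known. They fell into 17 cytosolic chaperones and co-chaperones (with the mitochondrial pair Hspd1 and Hspe1), 8 endoplasmic reticulum genes, and 12 genes of the Atf4 branch, Atf4 included. Their levels were compared in primary macrophages of wild-type (WT) genotype, derived from bone marrow per the series' design text, after 48 h on 3 materials. The materials were commercially pure titanium (cpTi), a zirconium-based metallic glass without tantalum, Zr61Cu25Al14 (Ta0), and the glass with tantalum, Zr58Cu25Al14Ta3 (Ta3), with 3 libraries each. A surface other than these, such as plastic, was not analysed here, so cpTi served as the reference. Neither age, sex nor the number of mice was given, and the tissue was labelled as a xenograft, a word that played no part in the grouping. Whether the 3 libraries of a material stem from separate mice or cultures was not stated, so a p-value reflects the scatter among these libraries only, and that scatter may be technical. The glass columns were assigned by composition from short column names, and if they were the other way round Ta0 and Ta3 would swap, while the comparison of the mean of both glasses with cpTi would stay as it is.

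As background, heat and other protein-damaging stress release the transcription factor HSF1, which binds heat shock elements and drives chaperone genes, the inducible Hspa1a and Hspa1b above all. Misfolded protein in the endoplasmic reticulum activates the sensors IRE1 (gene Ern1), PERK and ATF6, which raise chaperones such as BiP (gene Hspa5) through the factors XBP1 and ATF6. PERK and related kinases phosphorylate eIF2alpha, which favours translation of Atf4, and ATF4 then drives genes of amino acid synthesis and transport as well as Ddit3, the gene of the stress factor CHOP. In macrophages these pathways respond to infection, metal ions and demand for secretion.

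Levels are FPKM, the fragments per kilobase of gene and of sequencing depth as the authors scaled them. The libraries held 15517877 to 18689963 reads rebuilt from these values. The library totals implied by the authors' scaling were 9078170 in Ta0 replicate 1, 9775248 in Ta3 replicate 3 and 16342347 to 21911078 in the others. At the same gene length, 1 read thus gave the most FPKM in Ta0 replicate 1 and Ta3 replicate 3. Ribosomal protein genes took 2.28 to 18.6% of the reads, with 3.73 to 7.66% on cpTi, 7.34 to 18.6% on Ta0 and 2.28 to 17.1% on Ta3. In Ta0 replicate 1 and Ta3 replicate 3, the libraries with the highest ribosomal share, only 9.77 and 7.89% of the genes with 1 to 20 reads had a single read, against 22.4 to 27.9% in the other libraries. All 10 macrophage markers were expressed, each with at least 6.12 FPKM in every library, but not at like levels. Adgre1 had 149 to 163 FPKM on cpTi, 78.1 to 97.6 on Ta0 and 78.6 to 93.3 on Ta3. Csf1r, Mertk and Fcgr1 also had lower means on both glasses than on cpTi, and Cd68, Lyz2, C1qa and C1qb had higher means. The summed FPKM of 7 neutrophil markers was 61.9 to 270 on cpTi, 92.1 to 388 on Ta0 and 10.4 to 383 on Ta3, with Ly6g at 0 in all libraries. Only 2 of these 7 reached 1 FPKM in at least 3 libraries. That of 4 erythroid markers was at most 0.215 on cpTi, 0.540 to 11.99 on Ta0 and 0.172 to 35.6 on Ta3. The summed FPKM of 6 fibroblast markers was 27.6 to 49.8 on cpTi, 29.5 to 30.4 on Ta0 and 35.9 to 43.4 on Ta3. The part of such cells in the values of the stress genes was not tested.

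Promoter sequences are shown for 4 stretches that hold a match to an element of their pathway. They are the stretch between Hspd1 and Hspe1, neighbours whose levels varied differently between the libraries, those of the lumenal chaperones Hspa5 and Hsp90b1, and that of the Atf4 target Asns. All are taken from RefSeq windows of build GRCm38.p6, written 5′ to 3′ in the direction of the named gene, and capitals mark the matched elements. RefSeq windows were found for 34 of the 37 genes. Hsp90aa1, Hsp90ab1 and Hspa8 had none, so they were not searched. The first stretch is the whole 215 bases between the start sites of Hspd1 and Hspe1 (chr1:55087933-55088147, plus strand), with overlapping heat shock elements in capitals, each 3 alternating units of NGAAN or NTTCN. The Hspa5 stretch is the 250 bases before its start site (chr2:34771840-34772089, plus strand), with the endoplasmic reticulum stress response element in capitals. The Hsp90b1 stretch (chr10:86705525-86705664, minus strand) holds this element in both orientations. The Asns stretch (chr6:7693210-7693459, minus strand) has the core of the C/EBP-ATF response element, TGATGNAA, in capitals.
Hspe1: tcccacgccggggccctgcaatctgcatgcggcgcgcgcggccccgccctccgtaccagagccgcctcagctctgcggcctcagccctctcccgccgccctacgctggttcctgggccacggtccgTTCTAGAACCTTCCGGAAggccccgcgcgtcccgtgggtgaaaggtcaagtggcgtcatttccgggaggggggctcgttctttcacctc
Hspa5: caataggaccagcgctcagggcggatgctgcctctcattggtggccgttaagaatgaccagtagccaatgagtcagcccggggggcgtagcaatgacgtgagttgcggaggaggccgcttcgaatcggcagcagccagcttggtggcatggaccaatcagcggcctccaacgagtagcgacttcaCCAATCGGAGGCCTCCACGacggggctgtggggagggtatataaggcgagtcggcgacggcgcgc
Hsp90b1: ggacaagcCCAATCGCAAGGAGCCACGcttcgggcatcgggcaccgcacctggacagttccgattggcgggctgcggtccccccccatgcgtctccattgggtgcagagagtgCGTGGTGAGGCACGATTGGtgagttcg
Asns: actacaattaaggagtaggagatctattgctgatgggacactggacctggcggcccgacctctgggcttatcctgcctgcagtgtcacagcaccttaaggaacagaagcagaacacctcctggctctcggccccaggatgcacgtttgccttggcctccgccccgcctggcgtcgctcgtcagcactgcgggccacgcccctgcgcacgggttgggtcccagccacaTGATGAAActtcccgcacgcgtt

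Across all 32851 RefSeq windows, which run from 250 bases before to 50 after a start site and were searched on both strands, 0.603% held the heat shock element, 0.119% the endoplasmic reticulum stress response element and 3.97% the C/EBP-ATF core. Among the 34 genes with a window, the heat shock element was matched at Hspd1, Hspe1, Hsph1 and Chordc1. The endoplasmic reticulum element was matched at Hspa5 and Hsp90b1. The C/EBP-ATF core was matched at Asns, Chac1, Trib3 and Herpud1. The Xbp1 element TGACGTGG, found in 0.676% of windows, was matched at 0 of these genes. A match describes the letters in the window only, and the gene models of the deposited table can start upstream of the RefSeq start site, as they do for Hspa5, Asns and the Hspd1 and Hspe1 pair.

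No gene of the set passed the test between any of the materials. limma on log2(FPKM + 1), with adjustment over the 10858 genes that reached 1 FPKM in at least 3 libraries, called 0 of the 35 tested members in all 4 comparisons, and limma with voom weights on the rebuilt reads called 0 as well. The same test called 46 genes (0.424%) for Ta0 against cpTi, 52 (0.479%) for Ta3 against cpTi, 79 (0.728%) for the mean of both glasses against cpTi and 0 (0.0%) for Ta3 against Ta0. At an unadjusted p under 0.05 there were 3 members for Ta0 against cpTi (Phgdh, Psat1 and Ahsa1), where 5.5% of all tested genes passed. There were 3 for Ta3 against cpTi (Phgdh, Psat1 and Bag3), beside 6.99% of all tested genes, and 2 for Ta3 against Ta0 (Chordc1 and Chac1), beside 4.25%. For the mean of both glasses there were 3 (Phgdh, Psat1 and Ahsa1), beside 6.53%. As shares of the 35 members these are 8.57% for each comparison with cpTi and 5.71% for Ta3 against Ta0. The count of members whose groups did not overlap stood further from the share of all tested genes. All 3 Ta0 libraries lay above cpTi in 7 members (20%), beside 6.31% of all tested genes, and below in 2 (5.71%), beside 10.2%. For Ta3 against cpTi there were 3 members above (8.57%), beside 3.47%, and 2 below (5.71%), beside 8.22%. For Ta3 against Ta0 there was 1 above (2.86%), beside 4.1%, and 4 below (11.4%), beside 4.87%. All 6 glass libraries lay above cpTi in 3 members (8.57%), beside 1.48%, and below in 0, beside 3.67%. These counts carry no test, and the comparisons share libraries. They rest on the authors' FPKM scaling and were not repeated after rescaling. The signs of the fold changes did depend on the scaling. With libraries rescaled to the same FPKM total, 1 of the 15 cytosolic, 1 of the 8 endoplasmic reticulum and 3 of the 12 Atf4 branch genes had a fold change above 0 for Ta0 against cpTi. The median of all tested genes was then itself -0.48, beside medians of -0.41, -0.52 and -0.55 in these groups. In bulk RNA, a lower level in each cell and fewer cells that express a gene cannot be told apart.

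**Figure D1:**
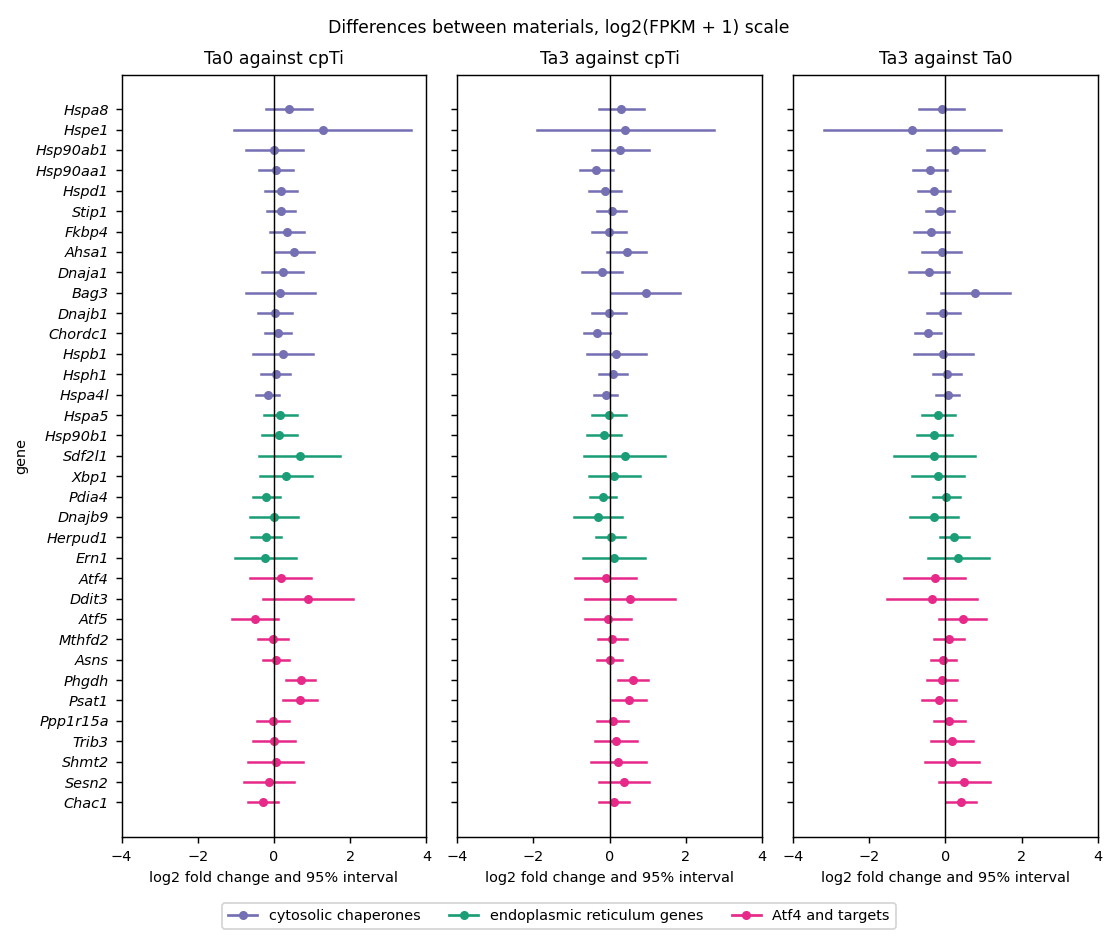
Log2 fold changes of the 35 tested members (points) with 95% intervals (lines) on the log2(FPKM + 1) scale for each pair of materials, coloured by role. The intervals of Phgdh and Psat1 lie above 0 on both glasses against cpTi before adjustment, Hspe1 has the widest intervals, and no member passed after adjustment over all tested genes.

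The role groups were centred near 0. The median log2 fold change for Ta0 against cpTi was 0.17 over the 15 tested cytosolic chaperones, 0.072 over the 8 endoplasmic reticulum genes and 0.025 over the 12 genes of the Atf4 branch, beside -0.0012 over all tested genes. For Ta3 against cpTi the medians were 0.051, 0.0042 and 0.14 in the same order, beside 0.020. For Ta3 against Ta0 they were -0.093, -0.19 and 0.0998, beside -0.041. Of the cytosolic chaperones 14 of 15 lay above 0 for Ta0 against cpTi and 8 of 15 for Ta3 against cpTi. Of the 10858 tested genes 5414 and 5717 did so. After rescaling of every library to the same FPKM total, the median of all tested genes itself moved to -0.48 for Ta0 against cpTi, -0.091 for Ta3 against cpTi and 0.33 for Ta3 against Ta0, and the role medians moved with it to -0.41, -0.52 and -0.55 for Ta0 against cpTi, so the sign of a role median depends on this scaling. By share of reads, the 37 genes together took 0.476% ± 0.0475 (SD, n = 3) on cpTi, 0.446% ± 0.0854 on Ta0 and 0.457% ± 0.102 on Ta3, and the ranges overlapped.

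**Figure D2:**
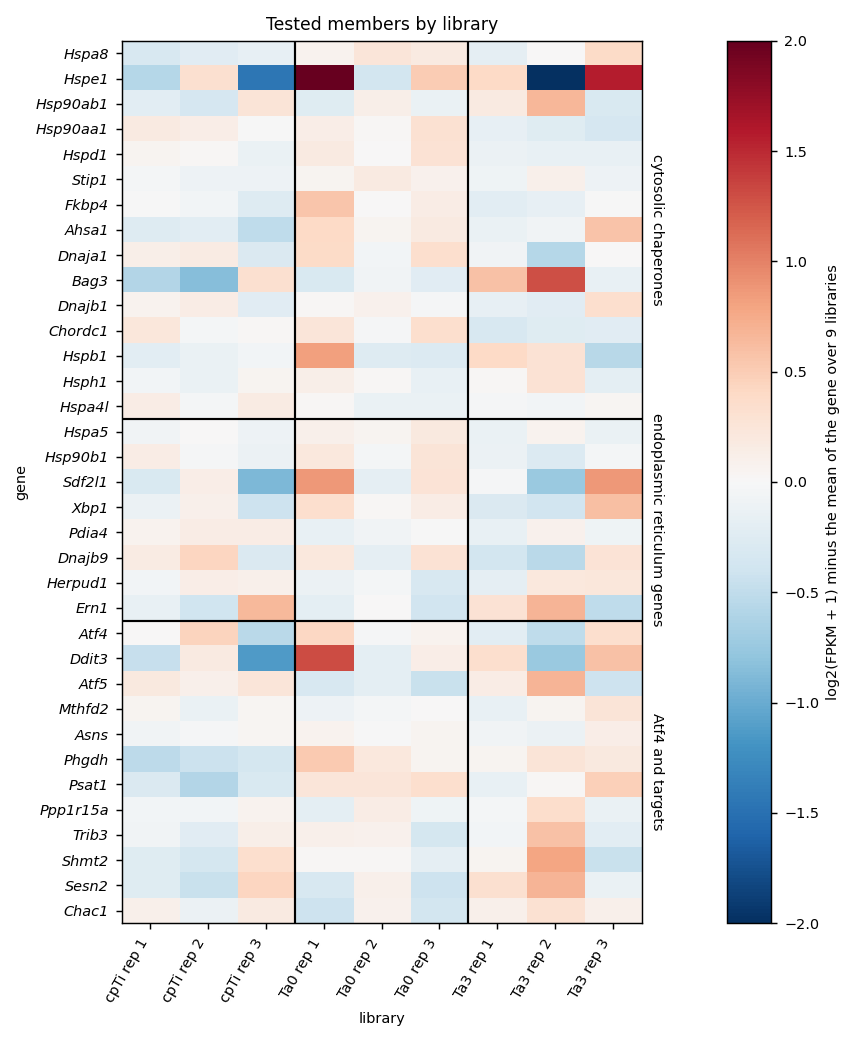
Heat map of the 35 tested members (rows, by role and falling mean level) in the 9 libraries (columns); colour gives log2(FPKM + 1) minus the mean of the gene over the 9 libraries, from -2 (blue) to 2 (red), with larger deviations drawn at these limits. Hspe1, Sdf2l1 and Ddit3 are darkest red in Ta0 replicate 1 and Ta3 replicate 3, Bag3 in Ta3 replicate 2, and Phgdh and Psat1 are blue in all 3 cpTi libraries.

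Among the cytosolic chaperones, few reads were counted at the stress-inducible Hsp70 genes on any material. Hspa1a had 0.301, 0.368 and 0.508 FPKM on cpTi, 0, 0.263 and 0.227 on Ta0, and 0.419, 0.609 and 0 on Ta3. The zeros stand for 0 reads, and 3 reads, the limit that a count of 0 allows, would have been 0.111 FPKM in Ta0 replicate 1 and 0.103 in Ta3 replicate 3. Hspa1b had 0.378, 0.519 and 0.684 FPKM on cpTi, 0.354, 0.621 and 0.568 on Ta0, and 0.637, 0.777 and 0.547 on Ta3. Both genes stayed under the filter and were not tested. The Ta0 values of Hspa1a lay below those on cpTi, and the materials overlapped for Hspa1b. These neighbours on chromosome 17 are near-identical copies, with 47.1% of the 100-base windows of Hspa1a also present in Hspa1b, so the split between them is uncertain. How reads that match both copies were counted was not given in the sources used here, so their sum and level are uncertain too. Their summed reads ran from 9 to 86 in a library.

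The constitutive Hsp70, Hspa8, was the most abundant member. It had 192, 203 and 213 FPKM on cpTi, 250, 281 and 270 on Ta0, and 210, 240 and 311 on Ta3. All 3 Ta0 libraries lay above all 3 cpTi libraries, while Ta3 replicate 1 lay within the cpTi range. The log2 fold change was 0.40 ± 0.26 (SE) for Ta0 against cpTi (95% interval -0.20 to 0.99, adjusted p = 0.750, limma) and 0.30 ± 0.26 for Ta3 against cpTi (adjusted p = 0.935). With the libraries rescaled to a common total the first became -0.22, beside a median of -0.48 over all tested genes.

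The cytosolic Hsp90 genes code for the isoforms that hold kinases and steroid receptors ready for use. Hsp90ab1, the constitutive isoform, had 175, 160 and 243 FPKM on cpTi, 171, 220 and 186 on Ta0, and 230, 322 and 164 on Ta3. The materials overlapped, and Ta3 replicate 2 was the highest library. Hsp90aa1, the inducible isoform, had 83.2, 80.8 and 73.5 FPKM on cpTi, 80.6, 74.8 and 91.2 on Ta0, and 65.4, 61.9 and 58.1 on Ta3. All 3 Ta3 libraries lay below the 6 libraries of the other materials, with means of 61.8 ± 3.61 (SD, n = 3) on Ta3, 79.2 ± 5.06 on cpTi and 82.2 ± 8.32 on Ta0. The difference did not pass, with log2 fold changes of -0.35 ± 0.19 for Ta3 against cpTi (95% interval -0.79 to 0.086, adjusted p = 0.802, limma) and -0.40 ± 0.19 for Ta3 against Ta0 (adjusted p = 0.846). After rescaling the value for Ta3 against Ta0 turned to 0.056, beside a median of 0.33 over all tested genes. Of all tested genes, 8.22% had all Ta3 libraries below all cpTi libraries.

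Chordc1, which codes for an Hsp90-binding protein, had the same order of materials at a lower level. It had 7.14, 5.77 and 6.05 FPKM on cpTi, 7.21, 5.81 and 7.75 on Ta0, and 4.54, 4.88 and 4.88 on Ta3. All Ta3 libraries lay below all others, and for Ta3 against Ta0 the log2 fold change was -0.45 ± 0.15 (95% interval -0.79 to -0.11, unadjusted p = 0.016 and adjusted p = 0.846, limma). Hspd1 and Fkbp4 also lay lower on Ta3 than on Ta0 without overlap, which makes 4 cytosolic chaperones of 15, where 4.87% of all tested genes did so. These counts share the same libraries, were made in FPKM and are given as a description. After rescaling, 13 of the 15 cytosolic chaperones had a fold change above 0 for Ta3 against Ta0. The median of the 15 was then 0.35, beside 0.33 over all tested genes. Over all alternatives the Chordc1 value for Ta3 against Ta0 ran from -0.56 to -0.048. Fkbp4, an Hsp90 co-chaperone of steroid receptors, averaged 27.9 ± 2.58 FPKM on cpTi, 36.2 ± 7.69 on Ta0 and 27.6 ± 2.20 on Ta3.

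Ahsa1, the activator of the Hsp90 ATPase, was the only cytosolic chaperone whose 6 glass libraries all lay above cpTi in FPKM. Of all tested genes, 1.48% shared this pattern. Ahsa1 had 15.2, 15.8 and 12.7 FPKM on cpTi, 24.6, 19.1 and 21.0 on Ta0, and 16.6, 17.5 and 27.7 on Ta3. Ta3 replicate 1 exceeded the highest cpTi library by little, and the highest values were in the libraries with the largest ribosomal share. The mean on the glasses was 1.45 times that on cpTi (log2 fold change 0.49 ± 0.20, 95% interval 0.046 to 0.94, unadjusted p = 0.034 and adjusted p = 0.674, limma). After rescaling it was 0.13, beside a median of -0.28 over all tested genes. For Ta0 against cpTi alone the log2 fold change was 0.54 ± 0.23 (adjusted p = 0.750) and turned to -0.046 after rescaling, beside a median of -0.48.

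Bag3, a co-chaperone that links Hsp70 to autophagy, had the largest difference between Ta3 and cpTi among the cytosolic chaperones. It had 7.51, 6.08 and 14.9 FPKM on cpTi, 9.29, 11.2 and 9.86 on Ta0, and 18.2, 30.2 and 10.5 on Ta3. The materials overlapped, since cpTi replicate 3 was above Ta3 replicate 3, and Ta3 replicate 2 was the highest library. The mean on Ta3 was 2.07 times that on cpTi (log2 fold change 0.95 ± 0.40, 95% interval 0.044 to 1.86, unadjusted p = 0.042 and adjusted p = 0.669, limma). Leaving out 1 library gave log2 fold changes from 0.59 to 1.31. With each library's slope on gene length as a covariate it was called (1.09, adjusted p = 0.00626, where 5.37% of all tested genes were called), and over all alternatives its adjusted p ran from 0.00626 to 1.00.

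The mitochondrial chaperonin genes Hspd1 (Hsp60) and Hspe1 (Hsp10) lie head to head on chromosome 1, and their products work together. Hspd1 had 67.0, 65.6 and 59.2 FPKM on cpTi, 73.4, 65.0 and 79.0 on Ta0, and 59.8, 58.2 and 58.4 on Ta3, a range of 1.36-fold. Hspe1 had 98.7, 183 and 53.3 FPKM on cpTi, 586, 113 and 210 on Ta0, and 193, 26.7 and 437 on Ta3, a range of 21.95-fold. In rebuilt reads, which do not depend on the authors' library total, Hspe1 ran from 849 to 7843 and Hspd1 from 1509 to 3426. Hspe1 thus varied far more than its neighbour from the promoter printed above, and within each material as well as between them. The ratio of Hspe1 to Hspd1 ran from 0.459 in Ta3 replicate 2 to 7.99 in Ta0 replicate 1. The log2 fold change of Hspe1 was 1.28 ± 1.02 for Ta0 against cpTi (95% interval -1.05 to 3.61, adjusted p = 0.750, limma) and 0.41 ± 1.02 for Ta3 against cpTi (adjusted p = 0.965), and the intervals were wide. With the slope on gene length as a covariate the value for Ta0 against cpTi turned to -0.069. Without Ta3 replicate 3 or without Ta3 replicate 2 the second value ran between -0.45 and 1.54.

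The order of the 9 libraries by Hspe1 was the order by ribosomal protein share, from 26.7 FPKM at a share of 2.28% to 586 FPKM at 18.6%. The same order held in 163 of the 10858 tested genes (1.501%), and Hspe1 was the only 1 of the 35 tested members with it. Hspd1 did not follow it. The gene models of the pair overlap by 112 bases on opposite strands. Of named processed pseudogenes of Hspd1 the highest value in any library was 9.33 FPKM, and for those of Hspe1 it was 0.781. The part of the ribosomal share in the Hspe1 values was not tested.

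**Figure D3:**
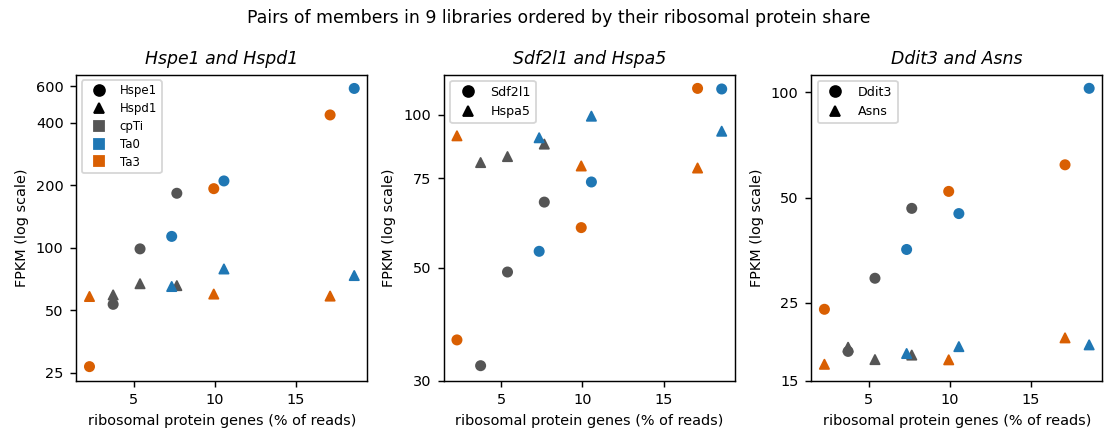
FPKM (log scale) of 3 pairs of members against the share of reads in ribosomal protein genes (percent) in the 9 libraries, coloured by material, with circles for the first gene of a pair and triangles for the second. Hspe1, Sdf2l1 and Ddit3 are highest in Ta0 replicate 1 and Ta3 replicate 3, at shares of 18.6 and 17.1%, while Hspd1, Hspa5 and Asns stay within a narrow band.

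The other cytosolic members overlapped between the materials or differed little. Stip1, the adaptor between Hsp70 and Hsp90, averaged 35.5 ± 0.780 FPKM on cpTi, 40.7 ± 1.88 on Ta0 and 36.9 ± 3.00 on Ta3. All 3 Ta0 libraries of Stip1 lay above cpTi, at a log2 fold change of 0.19 ± 0.16 (adjusted p = 0.750, limma). The J-domain co-chaperones Dnaja1 and Dnajb1 ranged over 12.03 to 24.3 and 9.26 to 14.1 FPKM. The small heat shock protein gene Hspb1 ranged from 2.48 to 8.01 FPKM, with its highest value in Ta0 replicate 1. The nucleotide exchange factor genes Hsph1 and Hspa4l were low throughout, at 2.76 to 4.28 and 1.76 to 2.40 FPKM. Dnaja1 overlaps Smu1, a gene on the opposite strand with a mean of 32.6 FPKM, and the strand setting of the counting was not given, so reads of the shared stretch cannot be told apart.

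In the endoplasmic reticulum group the lumenal chaperones were abundant and similar in FPKM on the 3 materials. Hspa5, the gene of BiP, the main lumenal Hsp70, had 82.7, 87.5 and 80.5 FPKM on cpTi, 92.8, 90.1 and 99.3 on Ta0, and 79.3, 90.9 and 78.5 on Ta3. The Ta0 libraries lay above all cpTi libraries and the Ta3 libraries straddled them, with a range of 1.26-fold over all 9. The log2 fold change was 0.17 ± 0.19 for Ta0 against cpTi (95% interval -0.27 to 0.61, adjusted p = 0.767, limma) and -0.014 ± 0.19 for Ta3 against cpTi (95% interval -0.45 to 0.42, adjusted p = 0.995). Hsp90b1, the lumenal Hsp90 (Grp94), whose promoter window holds the same element as that of Hspa5, had 76.0, 67.1 and 63.3 FPKM on cpTi, 79.8, 66.5 and 82.4 on Ta0, and 63.4, 56.3 and 66.6 on Ta3. The materials overlapped in every pair, and no comparison of Hsp90b1 had an adjusted p under 0.799. Over all alternatives the log2 fold change for Ta0 against cpTi ran from -0.44 to 0.20 for Hspa5 and from -0.47 to 0.24 for Hsp90b1. Among these alternatives, rescaling moved the median of all tested genes to -0.48.

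The remaining folding factors did not share one pattern. Sdf2l1, a lumenal protein that works with BiP, had 49.0, 67.3 and 32.1 FPKM on cpTi, 112, 53.9 and 73.7 on Ta0, and 59.97, 36.1 and 113 on Ta3. The materials overlapped, and the 2 highest values were in Ta0 replicate 1 and Ta3 replicate 3. The ratio of Sdf2l1 to Hspa5 ran from 0.397 to 1.43. The log2 fold change for the mean of both glasses was 0.54 ± 0.40 (95% interval -0.39 to 1.46, adjusted p = 0.844, limma). Pdia4, a protein disulfide isomerase, averaged 27.0 ± 0.813 FPKM on cpTi, 23.5 ± 1.24 on Ta0 and 23.9 ± 2.07 on Ta3, and its Ta0 libraries lay below all cpTi libraries (log2 fold change -0.20 ± 0.15, adjusted p = 0.750). Dnajb9, a J-domain partner of BiP, ranged from 10.2 to 20.7 FPKM. Herpud1, a factor of the degradation of misfolded lumenal proteins, ranged from 8.52 to 12.9 FPKM.

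The IRE1 arm was read from its sensor and its target. Ern1, the gene of IRE1alpha, had 3.65, 2.89 and 7.09 FPKM on cpTi, 3.49, 4.17 and 2.92 on Ta0, and 5.26, 7.19 and 2.62 on Ta3. The spread within cpTi and within Ta3 exceeded the difference between any means. Xbp1, whose mRNA IRE1 splices, had 39.1, 46.0 and 31.7 FPKM on cpTi, 53.9, 43.5 and 47.6 on Ta0, and 34.8, 32.3 and 65.5 on Ta3. The materials overlapped, with a log2 fold change of 0.31 ± 0.29 for Ta0 against cpTi (95% interval -0.36 to 0.99, adjusted p = 0.751, limma) that became -0.29 after rescaling. Gene-level FPKM cannot show the splicing of Xbp1.

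In the Atf4 branch, Phgdh and Psat1, enzymes of serine synthesis, were the members whose 6 glass libraries all lay above cpTi in FPKM. Neither passed the test. Phgdh, the first enzyme of serine synthesis (ENSMUSG00000053398, chr3:98313170-98339990, minus strand), had 11.8, 12.7 and 13.4 FPKM on cpTi, 25.3, 20.3 and 18.2 on Ta0, and 18.2, 21.0 and 19.96 on Ta3. All 6 glass libraries lay above all cpTi libraries. The mean on the glasses was 20.5 ± 2.62 FPKM (SD, n = 6) against 12.6 ± 0.812 (n = 3), a ratio of 1.62, and the log2 fold change was 0.65 ± 0.15 (95% interval 0.31 to 0.99, unadjusted p = 0.0020 and adjusted p = 0.148, limma). It was 0.70 ± 0.17 for Ta0 (adjusted p = 0.241) and 0.60 ± 0.17 for Ta3 (adjusted p = 0.345), and -0.095 ± 0.17 for Ta3 against Ta0 (95% interval -0.49 to 0.30, adjusted p = 0.873). With the slope on gene length as a covariate Phgdh was called for Ta0 (adjusted p = 0.0481), where 2.27% of all tested genes were called, and for the mean of both glasses (adjusted p = 0.0173), where 4.38% were, while over all alternatives its adjusted p for the mean of both glasses ran from 0.0173 to 0.883.

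Psat1, the next enzyme of that pathway (ENSMUSG00000024640, chr19:15904678-15947337, minus strand), showed the same order. It had 11.9, 9.53 and 11.7 FPKM on cpTi, 17.7, 17.8 and 19.0 on Ta0, and 13.2, 15.1 and 21.0 on Ta3. The 6 glass libraries again lay above cpTi, with Ta3 replicate 1 closest to it. The ratio of the means was 1.57 and the log2 fold change for the mean of both glasses was 0.59 ± 0.17 (95% interval 0.21 to 0.98, unadjusted p = 0.0074 and adjusted p = 0.305, limma). Over the 17 alternatives for that comparison the adjusted p of Psat1 ran from 0.0708 to 0.928, and the value from 0.24 to 0.66 on the log2 scale. With the libraries rescaled to a common total, the mean-of-glasses value was 0.29 for Phgdh and 0.24 for Psat1, beside a median of -0.28 over all tested genes. These serine enzymes and Ahsa1 were the 3 members of 35 with all glass libraries above cpTi in FPKM. By share of rebuilt reads the materials overlapped for all 3. Phgdh had 730 of 18203494 reads in cpTi replicate 3 and 485 of 15517877 in Ta3 replicate 3. Psat1 had 1092 reads in cpTi replicate 3 and 684 of 15527155 in Ta0 replicate 1. Ahsa1 had 1190 of 16638140 reads in cpTi replicate 1 and 977 in Ta0 replicate 1.

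**Figure D4:**
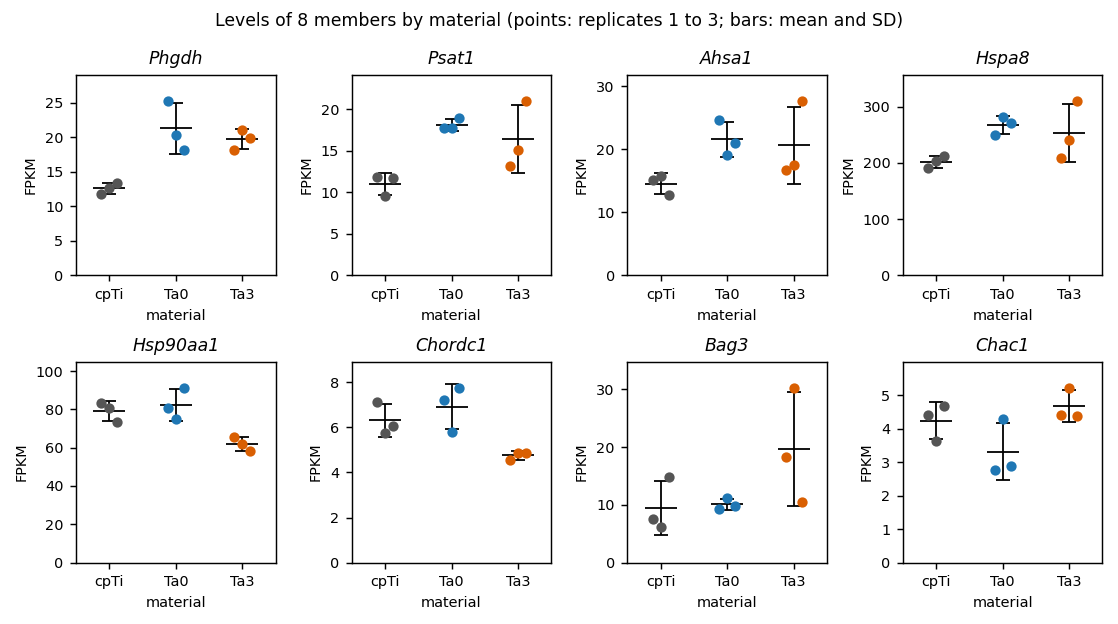
FPKM of 8 members in the 3 libraries of each material (points, replicates 1 to 3 from left to right), with the mean and SD (bars). The 6 glass libraries of Phgdh, Psat1 and Ahsa1 lie above the 3 cpTi libraries, those of Hsp90aa1 and Chordc1 on Ta3 lie below all others, and Bag3 is highest in Ta3 replicate 2.

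Other one-carbon and amino acid enzymes of the branch did not share this pattern. Asns, asparagine synthetase and a classical ATF4 target whose promoter is printed above, had 17.2, 17.7 and 18.7 FPKM on cpTi, 19.0, 17.9 and 18.7 on Ta0, and 17.2, 16.7 and 19.9 on Ta3. In FPKM it had the narrowest range of all members, 1.19-fold, while its rebuilt reads ran from 471 to 1119. Its log2 fold changes against cpTi were 0.051 ± 0.15 on Ta0 (95% interval -0.29 to 0.39, adjusted p = 0.902, limma) and 5.9e-05 ± 0.15 on Ta3 (95% interval -0.34 to 0.34, adjusted p = 1.00). Over all alternatives the Ta0 value of Asns ran from -0.53 to 0.081. Mthfd2 and Shmt2, enzymes of mitochondrial one-carbon metabolism, ranged from 19.5 to 26.4 and from 6.42 to 16.5 FPKM. Both overlapped between all materials, and the highest Shmt2 value was in Ta3 replicate 2.

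The transcription factors of the branch were abundant and variable. Atf4 itself had 187, 254 and 128 FPKM on cpTi, 247, 183 and 195 on Ta0, and 160, 130 and 236 on Ta3. The cpTi libraries alone held both the lowest and the highest value, and the log2 fold change for the mean of both glasses was 0.038 ± 0.30 (95% interval -0.65 to 0.73, adjusted p = 0.9746, limma). Since ATF4 is controlled mostly in translation, its mRNA does not measure the protein. Ddit3 had 29.4, 46.6 and 18.2 FPKM on cpTi, 103, 35.5 and 45.0 on Ta0, and 52.1, 24.0 and 62.0 on Ta3. The highest libraries were again Ta0 replicate 1 and Ta3 replicate 3, and all pairs of materials overlapped. The log2 fold change of Ddit3 for the mean of both glasses was 0.71 ± 0.45 (95% interval -0.32 to 1.73, adjusted p = 0.844). The table lists a second Ddit3 gene at 0 in every library, and Ddit3 overlaps Mars on the opposite strand by 68 bases.

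Atf5, a transcription factor of the same family, averaged 31.4 ± 1.68 FPKM on cpTi, 21.9 ± 1.92 on Ta0 and 31.8 ± 12.3 on Ta3. All Ta0 libraries lay below all cpTi libraries (log2 fold change -0.50 ± 0.27, 95% interval -1.11 to 0.11, adjusted p = 0.750, limma), and Ta3 held both a value of 20.3 and the highest of all, 44.7 FPKM. Atf5 overlaps Nup62, on the opposite strand and with a mean of 30.9 FPKM, over 571 bases.

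The genes that feed back on the stress response were low to moderate. Ppp1r15a, the gene of GADD34, which directs dephosphorylation of eIF2alpha, had 12.1, 12.1 and 13.3 FPKM on cpTi, 10.9, 14.2 and 11.9 on Ta0, and 12.3, 16.3 and 11.5 on Ta3. The materials overlapped, and the log2 fold change for the mean of both glasses was 0.024 ± 0.16 (95% interval -0.33 to 0.38, adjusted p = 0.972, limma). Chac1, an enzyme that degrades glutathione, had 4.40, 3.63 and 4.68 FPKM on cpTi, 2.76, 4.29 and 2.88 on Ta0, and 4.40, 5.21 and 4.37 on Ta3. All Ta3 libraries lay above all Ta0 libraries, at a log2 fold change of 0.41 ± 0.17 (95% interval 0.0093 to 0.81, unadjusted p = 0.046 and adjusted p = 0.846), a pattern found in 4.1% of all tested genes. Trib3, a pseudokinase that restrains ATF4, ranged from 8.55 to 17.2 FPKM, and Sesn2, an inhibitor of mTORC1, from 4.82 to 11.7 FPKM. Both were highest in Ta3 replicate 2, as were Ern1, Atf5, Shmt2, Chac1 and Ppp1r15a.

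The spread over the 9 libraries differed between members. Of the 35 tested members 5 had a highest library over 3 times the lowest (Hspe1, Ddit3, Bag3, Sdf2l1 and Hspb1), and 8 stayed under 1.5 times. The highest value in Ta0 replicate 1 or Ta3 replicate 3 together with the lowest in cpTi replicate 3 or Ta3 replicate 2 occurred in 9 of 35 members (25.7%), beside 29.7% of all tested genes. The reverse occurred in 6 (17.1%), beside 28.2% of all tested genes. By mean level 4 members exceeded 100 FPKM (Hspa8, Hspe1, Hsp90ab1 and Atf4), 23 lay between 10 and 100 and 8 between 1 and 10. With Ta0 replicate 1 and Ta3 replicate 3 both left out, a choice made after seeing the data, limma called 0 members again.

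Other genes of these pathways were read from 10 lists of 131 genes, of which 118 were tested. They were heat shock factors and further cytosolic chaperones (22 genes), chaperonin and prefoldin subunits (13), mitochondrial chaperones and proteases (10), stress sensors and eIF2alpha kinases (10), endoplasmic reticulum folding factors (18), degradation factors (15), further transcription factors of the Atf4 branch (12), amino acid transporters (9), aminoacyl-tRNA synthetases (12) and other amino acid enzymes (10). For the mean of both glasses against cpTi 0 genes of these lists were called higher and 1 lower, beside 0.728% of all tested genes called in either direction. That gene was Slc7a11, the cystine transporter subunit and a target of both ATF4 and NRF2. It had 5.11, 5.67 and 5.64 FPKM on cpTi, 1.23, 0.991 and 1.07 on Ta0, and 1.44, 1.67 and 0.955 on Ta3. The glass libraries did not overlap cpTi, and Slc7a11 fell with a log2 fold change of -1.55 ± 0.13 on the log2 scale (adjusted p = 0.0020, limma). Its call was lost after rescaling (-1.84, adjusted p = 0.130), with a range of adjusted p from 0.00019 to 0.130 over its alternatives.

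None of the other list genes with the smallest p passed. For the mean of both glasses against cpTi the log2 fold change was -0.47 ± 0.17 for Eif2ak2 (the kinase PKR, adjusted p = 0.565, limma). It was -0.44 ± 0.16 for Ero1l (the lumenal oxidase, adjusted p = 0.579) and 0.41 ± 0.17 for Sars (seryl-tRNA synthetase, adjusted p = 0.696). Sars had 31.0, 32.8 and 31.7 FPKM on cpTi, 44.5, 40.9 and 40.2 on Ta0, and 36.5, 42.2 and 54.1 on Ta3. Its 6 glass libraries lay above cpTi, which held in 3 of the 118 tested genes of these lists, beside 1.48% of all tested genes. All 13 chaperonin and prefoldin subunits lay above 0 for Ta0 against cpTi, with a median of 0.32, beside 5414 of the 10858 tested genes. All 13 lay below 0 for Ta3 against Ta0, with a median of -0.36, beside 5964 of the 10858. After rescaling 4 of the 13 lay above 0 for Ta0 against cpTi and 9 of the 13 for Ta3 against Ta0. Their medians were then -0.28, beside -0.48 over all tested genes, and 0.097, beside 0.33. None of the 13 was called in any comparison.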

How the data were processed

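RNA-seq of 9 libraries, 3 per material, was deposited as 1 table of FPKM values per gene. Per the submitters' processing notes, the builds named were GRCm38 and mm10 and the tools featureCounts 1.5.0-p3, HISAT2 2.0.5, DESeq2 1.20.0, CASAVA 1.8 and fastp, with no roles given, and the strand setting of the counting was not given in the sources used here. FPKM corrects for gene length and a library total set by the authors, so a few abundant genes can shift all other values. Dividing the FPKM of each gene by the value of 1 read gave whole reads within 0.05 for 100.0% of values, 15517877 to 18689963 per library, and these served an alternative with voom weights.

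From the deposited FPKM, log2(FPKM + 1) was fitted with limma 3.58.1 (R 4.3.3), 3 group means in 1 model with an intensity trend, over the 10858 genes of 54532 that reached 1 FPKM in at least 3 libraries. Tests were two-sided, p-values were adjusted by Benjamini-Hochberg over all tested genes within each of 4 comparisons, and calls required an adjusted p under 0.05. The fit was run on simulated counts with known changes. These held no differences between libraries in ribosomal share or slope on gene length, so they do not show how the fit performs on these libraries. Error values after ± are standard errors for fold changes and SD for levels, and counts at 0 and floors cover counting error only. All members are named. Values in every library are given for members with an unadjusted p under 0.05 in any comparison, the 2 members per role with the largest fold change for the mean of both glasses, and a set of 13 core genes. Of the other lists, called genes and up to 2 per list with the smallest unadjusted p under 0.05 are named. The members and lists were chosen with earlier results of these data known. Gene positions are those of the deposited table, and promoters are RefSeq windows of GRCm38.p6. The alternatives were rescaling to a common FPKM total, another pseudocount, no filter or a stricter one, voom, the slope of each library on gene length as a covariate, a replicate block, a fit of only the libraries compared, and leaving out each library.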

Additional observations from a re-analysis of the deposited data

How the results depend on the processing

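No member was called with a pseudocount of 0.1, without a filter, with a filter at 5 FPKM, with voom weights, with only the libraries compared or after rescaling. Of 1345 values of single genes under the alternatives 108 changed sign, and in 7 of these, named below as reversed, the reported value was larger than its standard error. The number of members called stayed at 0 with each library left out in turn (range 0 to 0).

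Rescaling to a common FPKM total moved the role medians (cytosolic, endoplasmic reticulum, Atf4 branch) to -0.41, -0.52 and -0.55 for Ta0 against cpTi, to 0.35, 0.27 and 0.54 for Ta3 against Ta0, and to -0.24, -0.36 and -0.29 for the mean of both glasses, beside all-gene medians of -0.48, 0.33 and -0.28. It reversed Ahsa1 (-0.046), Hspa8 (-0.22) and Xbp1 (-0.29) for Ta0 against cpTi, Hsp90aa1 (0.056) and Hsp90b1 (0.17) for Ta3 against Ta0, and Hspa8 (-0.034) for the mean of both glasses. The length slope as a covariate gave 1 member called for Ta0 (Phgdh), 2 for Ta3 and 2 for the mean of both glasses (Phgdh and Bag3), turned Hspe1 to -0.069 for Ta0 against cpTi, and moved the Atf4 branch to 0.16 for Ta0 against cpTi and the endoplasmic reticulum genes to 0.0063 for Ta3 against Ta0. For these the cause was not tested.

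The median of the Atf4 branch for Ta3 against Ta0 ran from -0.023 (without Ta3 replicate 2) to 0.18 with 1 library left out. All genes called numbered 46, 52, 0 and 79 (Ta0 against cpTi, Ta3 against cpTi, Ta3 against Ta0, mean of both glasses against cpTi), 11, 11, 0 and 16 after rescaling, 27, 29, 0 and 65 with the other pseudocount, 28, 21, 0 and 46 without a filter, 36, 31, 0 and 67 with the stricter filter, 35, 31, 0 and 76 with voom, and 246, 583, 0 and 476 with the length slope. With only the libraries compared they numbered 33, 7 and 0 in the first 3. With 1 library left out they ran from 7 to 84, 8 to 30, 0 to 0 and 11 to 101. The deviations of same-numbered libraries from their group means had 9 correlations from -0.82 to 0.85, 4 of them over 0.1. Differently numbered libraries also reached -0.78 and 0.81. These correlations therefore cannot show whether the numbers pair the libraries. With the replicate block 0 members and 4, 4, 0 and 14 genes were called.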

Other observations

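Atf3, a transcription factor induced through ATF4 and chosen after its values were seen, had 126, 129 and 125 FPKM on cpTi, 174, 182 and 168 on Ta0, and 141, 172 and 181 on Ta3. The 6 glass libraries lay above cpTi, but the log2 fold change for the mean of both glasses (0.42) did not pass (adjusted p = 0.793, limma). Of the 9 tested genes of its list 1 had this pattern, beside 1.48% of all tested genes.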
